A study of Mus musculus with 28 samples.

Results

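The replication-dependent histone genes supply the H1, H2A, H2B, H3 and H4 proteins that package newly made DNA. They were taken by symbol, as every protein-coding gene of the GENCODE mm10 annotation on an autosome whose name begins with Hist1h, Hist2h, Hist3h or Hist4h. The rule found 67 of 20807 autosomal protein-coding genes, with 6 coding for H1, 18 for H2A, 18 for H2B, 12 for H3 and 13 for H4. The Hist1 cluster on chromosome 13 held 54 of them, Hist2 on chromosome 3 held 10, Hist3 on chromosome 11 held 2 and chromosome 6 held Hist4h4. The rule itself uses no measured value, but it was chosen with earlier results of these data known.

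CUT&RUN (CnR), which releases DNA around an antibody-bound mark with a tethered nuclease, was run on nuclei of medium spiny neurons (MSNs) from the striatum of C57BL/6J mice of about 8 weeks. The Sun1-sfGFP;A2a-cre line gave the A2a nuclei and the Sun1-sfGFP;Drd1-cre line the D1 nuclei. Both carried the R26-CAG-LSL-Sun1-sfGFP allele, so that the Cre line alone decided which nuclei were tagged with GFP and captured by INTACT, and any other cell in which a Cre line is active was captured too. Of 28 samples, 8 stood behind the 4 lists described, each list pooling 2 replicates: H3K4me3 peaks (Abcam antibody) and H3K27me3 islands (Active Motif antibody) for A2a and for D1 nuclei. The labels of the D1 H3K27me3 samples disagree: A2a stands in the source name, D1 in the title and under cell type. The title was followed. The marker islands given further on run the way the D1 title says, as the D1 list held 86 island reads at Drd1 and 4153 at Adora2a, and the A2a list 1958 at Drd1 and no island at Adora2a. Pooled lists give no spread between mice, so no difference between A2a and D1 was tested, and each interval covers counting error only.

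In dividing cells these genes are transcribed as DNA is copied, from arrays in which H2A and H2B genes often lie head to head. Their short mRNAs mostly end in a stem-loop, bound by SLBP, instead of a poly(A) tail, and some members also give polyadenylated mRNA in cells that no longer divide. H3K4me3 marks the start of genes with an active or open promoter. H3K27me3 is laid down by Polycomb repressive complex 2 over silent genes. MSNs have left the cell cycle, and the lists show which marks the promoters carry there.

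The stem-loop was found by its letters in the 150 bases after an annotated stop codon in 65 of the 67 genes, and it began a median of 31 bases after the stop. Hist2h2be and Hist1h2an had none that matched. These are the 3 most frequent of 8 letter forms, shown because they mark the class. Capitals are the paired stem and lower case is the loop.
Form of 41 genes, among them Hist1h1c and Hist1h2ao: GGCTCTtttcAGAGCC
Form of 9 genes, among them Hist1h1t and Hist1h2ba: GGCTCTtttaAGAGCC
Form of 8 genes, all coding for H4: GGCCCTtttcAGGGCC
The stem-loop did not separate genes with an H3K4me3 peak from those without one, since all 5 genes without a peak held it.

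Promoter letters differed between histone families. RefSeq promoters of 300 bases (250 before the start and 50 after, GRCm38.p6) were matched by gene ID for 62 of the 67 genes and searched on both strands. CCAAT, the letters bound by NF-Y, stood in all 6 H1, 18 H2A, 16 H2B and 10 H3 promoters but in 3 of 12 H4 promoters, beside 37.4% of all 32851 RefSeq promoters. The octamer ATTTGCAT, which POU2F1 binds and which is known from H2B promoters, stood in 7 of 18 H2A, 6 of 16 H2B and 0 other promoters, beside 1.74% of all. TATAAA stood in 35 of the 62 (56.5%), beside 13.6% of all. None of these 3 motifs contains another, and head-to-head genes share promoter letters, so the counts are not independent.

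The next stretches, read from GRCm38.p6 with the matched letters of these motifs in capitals, are referred to below. The first lies between the starts of a head-to-head pair under a peak of high −log10 q, and the second between the starts of a pair with no peak at either start.
Hist2h2ac and Hist2h2be, chr3:96220881-96221118, plus strand: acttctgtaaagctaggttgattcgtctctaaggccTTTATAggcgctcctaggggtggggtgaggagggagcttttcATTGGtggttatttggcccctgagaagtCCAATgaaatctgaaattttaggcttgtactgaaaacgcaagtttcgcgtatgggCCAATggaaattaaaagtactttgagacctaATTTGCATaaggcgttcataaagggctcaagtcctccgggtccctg
Hist1h2bq and Hist1h2ao, chr13:21810198-21810464, plus strand: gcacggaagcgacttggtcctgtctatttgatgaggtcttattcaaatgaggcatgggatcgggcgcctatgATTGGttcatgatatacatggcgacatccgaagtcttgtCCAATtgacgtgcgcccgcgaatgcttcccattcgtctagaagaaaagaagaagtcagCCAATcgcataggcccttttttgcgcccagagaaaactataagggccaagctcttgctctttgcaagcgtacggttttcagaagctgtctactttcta
The last 3 are the 150 bases before 3 starts. They belong to an H1 gene with a peak of high −log10 q, the testis H1 gene with no peak, and the testis H2A gene with no peak.
Hist1h1c, chr13:23738658-23738807, plus strand: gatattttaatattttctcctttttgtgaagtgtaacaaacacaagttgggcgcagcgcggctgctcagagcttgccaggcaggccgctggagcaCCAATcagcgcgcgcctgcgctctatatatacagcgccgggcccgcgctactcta
Hist1h1t, chr13:23695664-23695813, plus strand: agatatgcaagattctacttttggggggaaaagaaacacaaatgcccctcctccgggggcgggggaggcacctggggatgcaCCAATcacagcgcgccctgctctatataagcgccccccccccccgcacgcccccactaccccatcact
Hist1h2aa, chr13:23934312-23934461, plus strand: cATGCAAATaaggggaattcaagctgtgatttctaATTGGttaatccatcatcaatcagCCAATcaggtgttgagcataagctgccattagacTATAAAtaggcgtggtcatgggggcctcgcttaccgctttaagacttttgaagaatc
The upstream sequence of Hist1h2aa held the octamer, both a CCAAT and its reverse complement, and TATAAA, so these letters were present at a promoter without a peak.

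H3K4me3 peaks touched the promoter window of nearly all of these genes in both neuron types. A promoter was called marked when a peak touched the window from 2 kb before to 1 kb after the annotated transcription start site (TSS). In A2a 62 of 67 genes were marked (92.5%, Wilson 95% interval 83.7% to 96.8%), where 59.3% of all autosomal protein-coding genes were. In D1 the same 62 genes were marked, where 56.8% of all genes were, and 56.7% were marked in both lists. No member had a peak in one list only, a state found at 2.61% of all genes for A2a and 0.154% for D1. Counted more strictly, by a peak over the TSS itself, 51 genes in A2a (76.1%) and 50 in D1 (74.6%) were marked, beside 52.4% and 49.9% of all genes. In these dense arrays a window can take in a neighbour's peak. Hist1h2bq and Hist1h2br, for example, counted as marked in A2a by peaks 1861 and 1909 bp from the TSS.

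No replication-dependent histone promoter lay in an H3K27me3 island. The count was 0 of 67 in A2a and 0 of 67 in D1, which allows a share of up to 5.42% (Wilson), where 22.4% and 15.8% of all genes had an island in the window. The 67 include windows made of repeated sequence, such as those of Hist1h2ao and Hist1h2ap, where an absent island cannot be told apart from unread sequence. Among the 29 genes with at least 80% of 32-base words found once in the genome, 0 had an island in either list. Promoters with both marks, which the study calls bivalent, therefore numbered 0 of 67 in each list, beside 9.84% of all genes in A2a and 5.79% in D1. H3K4me3 in both lists with H3K27me3 in neither was the state of 62 histone genes and of 48.3% of all genes. The remaining 5 had no mark in either list, while 28.2% of all genes in A2a and 33.2% in D1 had none.

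**Figure D1:**
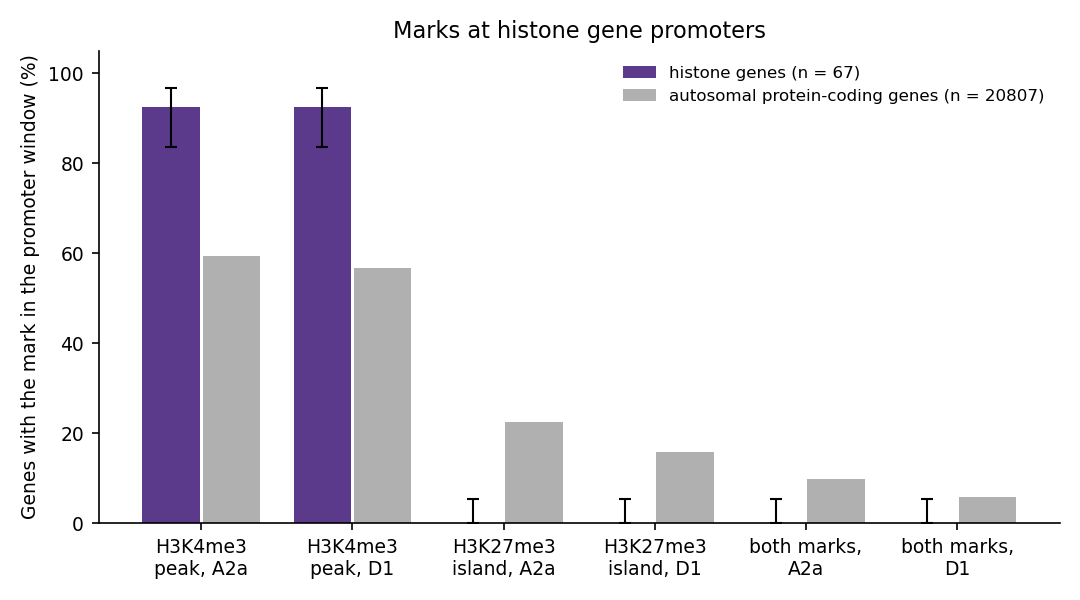
Share of genes with a mark in the promoter window (percent, y axis) for the 67 histone genes (purple, with Wilson 95% intervals) and for 20807 autosomal protein-coding genes (grey), by mark and pooled list. H3K4me3 was at 92.5% of histone promoters in both lists, and H3K27me3 and both marks were at 0.

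Both marks were also read at positions every 100 bp around the TSS. At the TSS, 76.1% of histone genes in A2a and 74.6% in D1 lay in an H3K4me3 peak. At 1 kb downstream it was 25.4% and 22.4%, below the 34.5% and 30.4% of all genes, and at 2 kb upstream it was 19.4% and 16.4%, above the 1.49% and 1.33% of all genes. The 67 genes had a median length of 539 bp. No histone gene was covered by an island at any of these positions from 3.9 kb upstream to 3.9 kb downstream in either list.

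**Figure D2:**
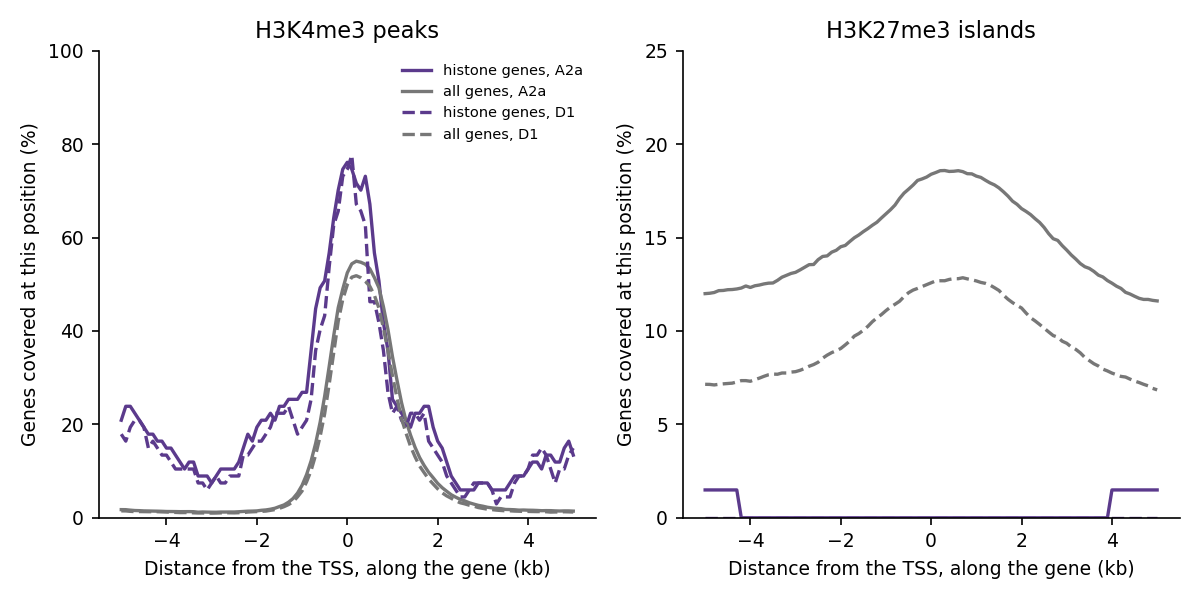
Percent of genes (y axis) whose position at a given distance from the TSS (x axis, kb, along the gene) lies in an H3K4me3 peak (left) or an H3K27me3 island (right, smaller y range). Histone genes are purple and all autosomal protein-coding genes grey, with A2a solid and D1 dashed. At the TSS the A2a histone line stands at 76.1% for H3K4me3 and at 0 for H3K27me3.

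The 5 genes without an H3K4me3 peak in either list (40.6% of all genes had none) fell into 2 kinds. Hist1h1t codes for the testis linker histone, and Hist1h2ba and Hist1h2aa code for the testis forms of H2B and H2A. Hist1h2ba and Hist1h2aa stand head to head, 306 bp apart, at the far end of the Hist1 cluster, and their nearest peaks lay 170044 and 170350 bp away in A2a. Hist1h1t lies among marked genes, with the nearest peak 1690 bp from its TSS in A2a and 1695 bp in D1, outside the window. Their windows were readable by short reads, as 91.5% (Hist1h2ba), 92.3% (Hist1h2aa) and 99.2% (Hist1h1t) of the 32-base words in them occurred once in the genome.

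Hist1h2ao and Hist1h2ap, somatic H2A genes, were the other two. Their coding sequences are identical, and 0% of the 32-base words in either window occurred once in the genome. All 235 bases between the starts of Hist1h2ap and Hist1h2br are found, on the other strand, as 1 run in the 267-base Hist1h2bq and Hist1h2ao stretch printed above. The authors kept reads of a mapping quality of at least 20, which reads lying wholly within identical copies do not reach, so an absent peak at these genes cannot be told apart from unread sequence.

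The same duplicated stretch held the highest fold enrichments of the class. A peak of 623 bp near Hist1h4m, which also touched the window of Hist1h2bq, had a fold enrichment of 29.8 in A2a, equal to the highest at any autosomal protein-coding promoter in that list, and 17.4 in D1 over 789 bp. Near Hist1h4n and Hist1h2br, the copies of these genes, the fold was 21.1 in A2a and 13.9 in D1. Of the words in these 4 windows, between 0.774% and 2.83% occurred once. Neither A2a peak covered a TSS: they lay 312 bp from that of Hist1h4m and 362 bp from that of Hist1h4n. The part of repeated sequence in these values was not tested.

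Over the 67 windows, the share of 32-base words found once had a median of 78.5% and 38 windows were below 80%. Of the 29 genes at or above 80%, 26 were marked in both lists, and the 3 others were the testis genes. Among the 26, the H2A gene Hist1h2af (88.2%) and the H1 gene Hist1h1d (91.1%) were marked only by a neighbour's peak that missed their TSS. For Hist1h2af it was the edge of the Hist1h4h peak, 1087 bp from the TSS in A2a and 1095 bp in D1. For Hist1h1d it was the Hist1h4f peak, 1404 bp and 1416 bp from the TSS. Of the 11 marked genes in A2a whose peak missed the TSS, 9 were below 80%, as were 9 of 12 in D1. The median percentile was 74.1 at or above 80% and 73.3 below it in A2a, and 86.6 and 65.4 in D1. Whether read mapping sets this D1 gap was not tested.

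**Figure D3:**
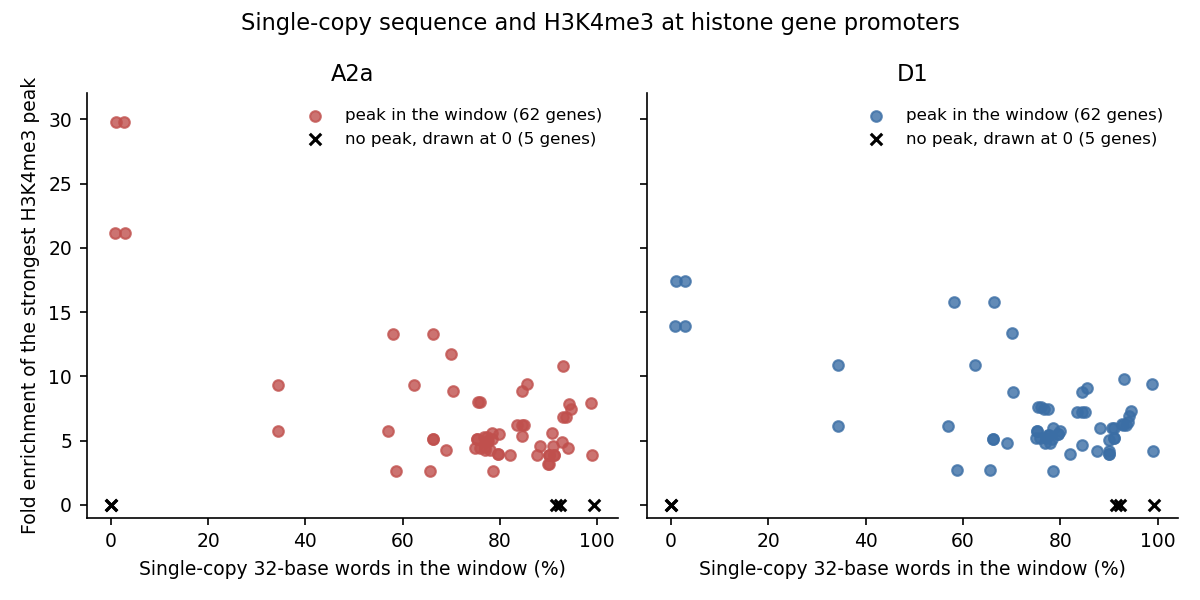
Fold enrichment of the strongest H3K4me3 peak in the promoter window (y axis) against the percent of 32-base words of the window found once in the genome (x axis), for A2a (left) and D1 (right). Each dot is a histone gene and crosses at 0 are the 5 genes with no peak: 2 have no single-copy word and 3 lie above 90. The dots at 29.8 and 21.1 in A2a belong to windows with almost none.

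By −log10 q the histone peaks stood close to other promoter peaks, and by fold enrichment they stood lower. Strength was ranked within each list, as the percentile of a gene's strongest peak by −log10 q among all peaks of that list. The median percentile of the 62 genes was 73.5 in A2a and 66.2 in D1, beside 72.8 and 71.6 for all genes with a peak. By fold enrichment over local background the histone genes ranked lower, with a median percentile of 31.8 in A2a and 45.2 in D1 beside 63.1 and 65.5 for all genes. The median fold was 5.2 in A2a and 5.98 in D1, beside 7.67 and 7.52. The peaks had a median length of 1651 bp in A2a and 1206 bp in D1, and covered the whole of 33 and 26 genes.

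By −log10 q, the 3 highest genes of each list code for H1, H2B or H3, and other families followed closely: the H4 gene Hist1h4j stood at 98.7 in A2a and the H2A genes Hist2h2ab and Hist2h2ac at 98.9 in D1. In A2a, Hist1h1c, a somatic H1 gene whose upstream bases are printed above, stood highest at percentile 99.2 (−log10 q of 277), and in D1 it stood at 92.2. Hist1h1e, another somatic H1 gene, stood at 98.9 in A2a and 86.7 in D1, and Hist1h2be had the same values because the annotated 5′ end of this 37455 bp gene model reaches the Hist1h1e peak. In D1, Hist1h2bh and Hist1h3f, a head-to-head H2B and H3 pair, stood highest at 99.6 under 1 peak, and at 96.7 in A2a. Hist1h3e, an H3 gene, followed in D1 at 99.1 and stood at 92.2 in A2a. The windows of Hist1h2bh, Hist1h3f and Hist1h3e held 58.1%, 66.3% and 70.0% single-copy words. The part of repeated sequence in their ranks was not tested.

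Ranked by the strongest peak in the window, the 3 lowest genes were the same in both lists. Lowest was Hist1h3g, an H3 gene, at percentile 39.5 in A2a (fold 2.63) and 35.2 in D1 (fold 2.68). Hist1h2bf and Hist1h3d, whose strongest peak was the one over the Hist1h3d start, followed at 43.0 in A2a and 39.3 in D1. Hist1h2ad, an H2A gene, lies between these genes. The peak over the starts of Hist1h2bf and Hist1h2ad was weaker than that of Hist1h3g, with a fold of 1.94 in A2a and 2.09 in D1. Its −log10 q was 15.93 and 12.12, beside 31.17 and 21.73 for Hist1h3g. Hist1h2ad ranked higher because the Hist1h2bg peak also touched its window. Even the 3 lowest genes stood clear of the callers' threshold, as no member was lost when peaks with a −log10 q under 5 were removed.

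Among families, the median percentile in A2a was 53.3 for 5 marked H1 genes, 73.5 for 15 H2A genes, 73.5 for 17 H2B genes, 51.7 for 12 H3 genes and 74.1 for 13 H4 genes. In D1 it was 65.7, 79.5, 66.6, 52.1 and 65.9. Within each family the range was wide, as in H3, from 39.5 to 97.04 in A2a and from 35.2 to 99.6 in D1. The families overlapped throughout.

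The genes share their peaks. The 62 marked genes touched 41 peaks in each list: 15 peaks touched the window of 1 gene, 20 of 2 and 6 of 3. Of 13 head-to-head pairs with starts within 1 kb, 12 join an H2A and an H2B gene at 176 to 306 bp and 1 joins Hist1h2bh and Hist1h3f at 660 bp. In 10 pairs a single peak covered both starts, in A2a and in D1 alike. The other 3 were the testis pair and both copies of the duplicated pair. Genes that share a peak are a single measurement, so the counts and intervals over genes carry fewer observations than their n.

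The Hist2h2ac and Hist2h2be stretch, with CCAAT on both strands, an octamer on the plus strand and TATAAA on the minus strand, lay under 1 peak with Hist2h2ab. This peak measured 2624 bp in A2a (fold 6.26, percentile 98.0) and 2356 bp in D1 (fold 7.24, percentile 98.9). By fold enrichment its percentile was 45.3 in A2a and 61.9 in D1, below the medians of 63.1 and 65.5 for all genes with a peak. Hist2h2be codes for an H2B variant best known from olfactory neurons. In the 12 stretches between H2A and H2B genes, CCAAT stood in 12, TATAAA in 7 and the octamer in 5, the testis pair among them.

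For 2 genes the annotated 5′ end was far from the coding sequence, which had a peak of its own. Within Hist1h1d, an H1 gene, a peak of 1505 bp in A2a (percentile 93.4) and of 1499 bp in D1 (80.2) covered the start codon. The peak in its promoter window belonged to Hist1h4f and stood at 53.3 and 65.7. Over the start codon of Hist1h2be, a peak stood at 65.3 in A2a and 57.8 in D1. The rule of the window thus gave Hist1h1d a lower and Hist1h2be a higher rank than the peak at its coding sequence.

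Ranks were also read by location. Members were split into runs wherever neighbours were over 100 kb apart, which divides the Hist1 cluster into runs of 18, 5, 29 and 2 genes. In the first run, the 16 marked genes had a median percentile of 70.7 in A2a and 60.5 in D1. Of these, 12 of 16 stood higher in A2a, beside 65.4% of all genes with a peak in both lists. Among the 12 are Hist1h2bq, Hist1h2br, Hist1h4m and Hist1h4n, whose duplicated windows hold 0.774% to 2.83% single-copy words. In Hist2, all 10 stood higher in D1, with medians of 96.3 in A2a and 97.4 in D1. Over all 62 members 29 stood higher in A2a, where 65.4% of all genes with a peak in both lists did. These are ranks within 2 pooled lists of unequal length (22551 and 20080 peaks), and neighbours share peaks.

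Outside the 2 large clusters, Hist4h4, an H4 gene alone on chromosome 6, had a peak over its TSS at percentile 91.5 in A2a (fold 7.48) and 89.7 in D1 (fold 7.34). Hist3h2ba, an H2B gene, stood at 47.5 in A2a and 66.7 in D1. Hist3h2a, an H2A gene, stood at 61.9 and 89.1. The Hist3 folds, between 3.17 and 5.05, lay below the medians of the class, in peaks of 1938 to 3052 bp.

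**Figure D4:**
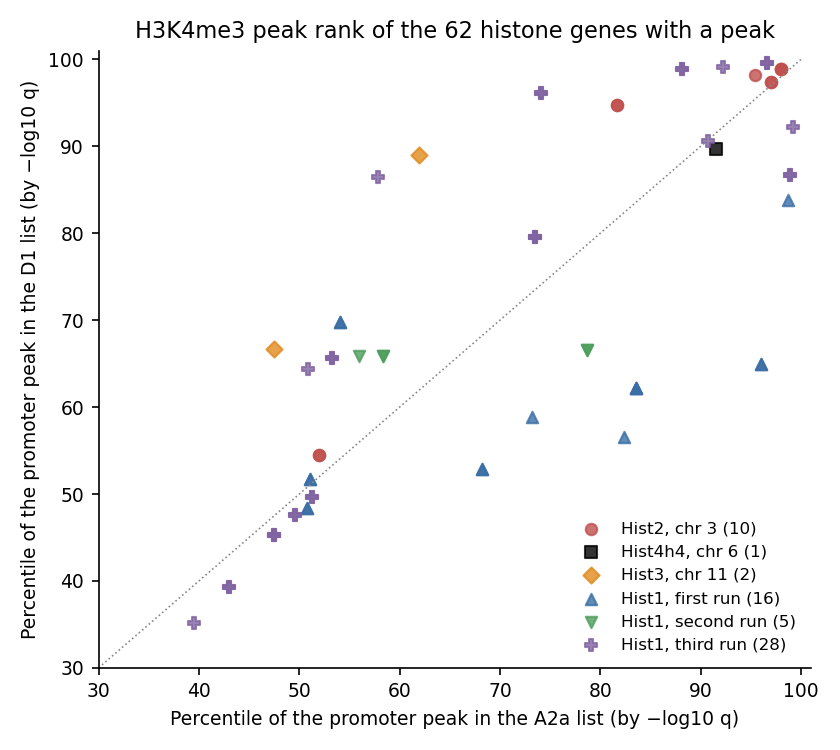
Percentile of each histone gene's strongest promoter H3K4me3 peak by −log10 q in the A2a list (x axis) and the D1 list (y axis), 62 genes in all. Colours and symbols give the run of genes with the number of marked genes, genes that share a peak fall on 1 point, and the dotted line marks equal rank. In the first Hist1 run 12 of 16 genes lie below the line, among them those with duplicated windows, and all 10 Hist2 genes lie above it. Of all genes with a peak in both lists, 65.4% stood higher in A2a.

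H3K27me3 islands lay almost wholly outside the histone runs. The islands covered 0% of the Hist2, Hist3 and Hist4h4 spans and 0% of 3 of the 4 Hist1 runs in both lists. The run of 29 genes held 2 islands in A2a, 3.60% of its 233.4 kb with 460 reads, and 1 in D1, 1.63% with 155 reads. An island of 4.0 kb in A2a and 3.8 kb in D1 lay on Hfe, the hemochromatosis gene between histone genes, 7.95 and 8.15 kb from the window of Hist1h4c. The other A2a island, of 4.40 kb, lay 18.6 kb from that of Hist1h2bc.

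Over its whole 2219 kb the Hist1 cluster was covered at 13.3% in A2a and 9.45% in D1, beside 12.1% and 7.43% of the autosomes. Nearly all of this lay between the runs. The 197.6 kb between the first and second runs was covered at 38.9% in A2a and 35.4% in D1, with an island of 46.8 kb and 7540 reads in A2a and one of 34 kb and 2929 reads in D1. These islands ended 10.6 and 10.8 kb before the first gene of the second run. The long stretch between the run of 5 and the run of 29 genes, 1487 kb with mostly vomeronasal receptor genes, was covered at 12.9% and 7.87%. H3K4me3 peaks lay between the runs too. The 197.6 kb stretch held 12 in A2a and 10 in D1, and the 1487 kb stretch held 23 and 22.

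**Figure D5:**
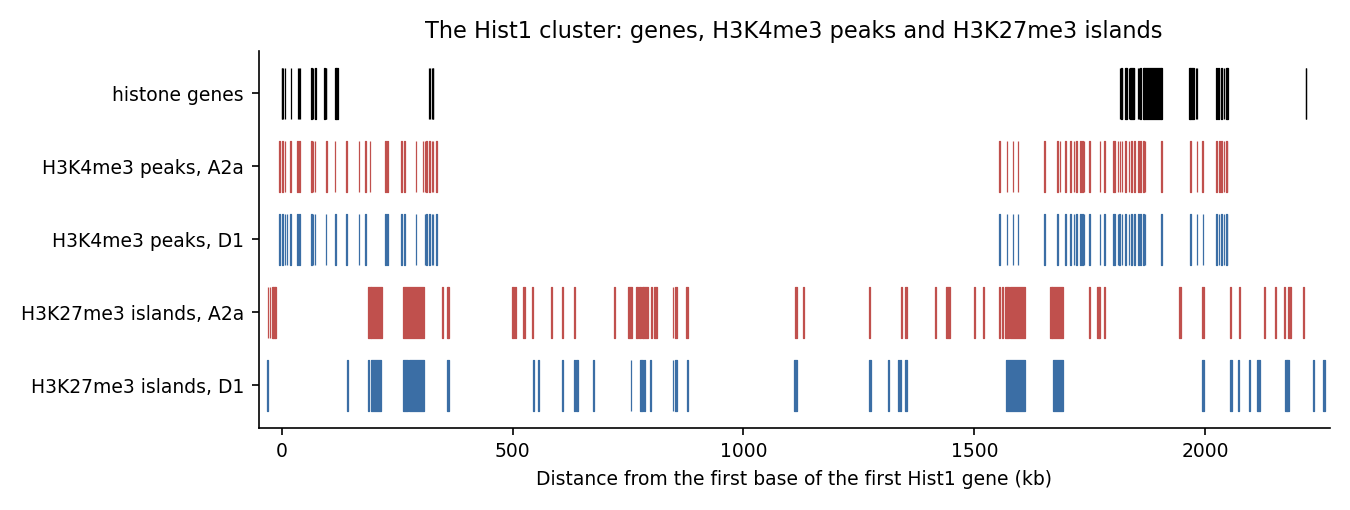
Map of the Hist1 cluster in kb from the first base of its first gene (x axis): histone genes in black, then H3K4me3 peaks and H3K27me3 islands of A2a (red) and D1 (blue), drawn to scale. H3K4me3 peaks lie on 3 of the 4 runs of histone genes and not on the last, the testis pair. Other peaks lie between these 3 runs. The broad island of 46.8 kb in A2a and 34 kb in D1 ends before the second run.

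The distance from a histone promoter window to its nearest island had a median of 35.3 kb in A2a and 46.3 kb in D1, beside 26.2 kb and 50.8 kb for all genes, so that the medians differed in opposite directions. An island within 10 kb was present for 9 of 67 genes in A2a and 6 of 67 in D1, where 36% and 26.1% of all genes had one. The closest in A2a was 2.26 kb from the window of Hist1h2aa, a gene with no H3K4me3 peak, whose nearest D1 island was 14.3 kb away. The closest in D1 was 6.54 kb from the window of Hist1h1a, an H1 gene with a peak.

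Of 50 other protein-coding genes within the cluster spans, 8 had an H3K4me3 peak in the promoter window in both lists, beside 56.7% of all genes. An island was present at 21 of the 50 in A2a and 12 in D1, beside 22.4% and 15.8% of all genes. Most were vomeronasal type 1 receptor genes. In the same spans 0 of 67 histone genes had an island in either list.

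Genes of histone biology outside the class mostly had a peak in both lists and no island, the state of 48.3% of all autosomal protein-coding genes. Of 14 histone genes listed as replication-independent, 13 of them autosomal, 11 had an H3K4me3 peak in both lists, where 56.7% of all genes did. H1f0 alone had an island, in A2a (258 reads). Of the genes for H3.3, which replaces H3 in neurons, H3f3a had percentiles of 97.5 (A2a) and 85.8 (D1), and H3f3b of 67.3 and 66.7. H1fnt of testis, H1foo of oocytes and H2bfm on the X chromosome had no peak. Of 18 genes for the transcription and 3′ processing of histone mRNA, 16 had a peak in both lists and Zfp473 and Nfyc had none in the window. Npat, the coactivator of histone transcription, stood at 71.4 and 87.0, and Slbp, the stem-loop binding protein, at 92.5 and 99.3. Islands stood at Lsm11 and Sympk in A2a and at none of the 18 in D1.

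Marker genes were read in the same way. The dividing-cell markers Mki67, Top2a, Ccnb1 and Cdk1 had a peak in A2a at all 4, with percentiles of 26.2 to 45.5, and at 3 in D1, with Cdk1 lacking one. Mki67 and Cdk1 also had an island in both lists. All of Adora2a, Drd2, Penk and Gpr6 (A2a) and Drd1, Pdyn, Tac1 and Isl1 (D1) had a peak in both lists. Islands stood at 2 of 4 A2a markers in the A2a list and 4 of 4 in the D1 list, and at 4 of 4 D1 markers in both. The islands differed in size with the cell type. At the D1 markers they held 1958 (Drd1), 4641 (Pdyn), 9144 (Tac1) and 6620 reads (Isl1) in the A2a list, and 86, 50, 121 and 229 reads in the D1 list. At the A2a markers they held 160 (Drd2) and 200 reads (Penk) in the A2a list, and 4153 (Adora2a), 559 (Drd2), 1365 (Penk) and 1265 reads (Gpr6) in the D1 list. These counts are not normalized between the lists, and the smaller ones lie at the markers of the named cell type. No microglial marker of 3 had a peak, and 1 of 3 astrocyte markers had one in each list. One of 3 oligodendrocyte markers had a peak in A2a and 0 had one in D1. A share of other cells in the histone peaks was not tested.

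The histone promoters had a lower median GC content and a higher median CpG ratio than all genes, differences that were not tested. Over the 250 bases before and 50 bases from the annotated TSS, the median GC content was 45.3% for the 67 genes and 55.3% for all genes. The ratio of observed to expected CpG had a median of 0.750, beside 0.540, and was at least 0.6 in 48 genes (71.6%), beside 45.5% of all genes. Hist1h1t (0.449) and Hist1h2ba (0.455) and Hist1h2aa (0.578), the testis genes without a peak, fell below 0.6. Hist1h2ao (0.896) and Hist1h2ap (0.944) did not, and 16 of the 62 genes with a peak also fell below 0.6, so the ratio did not separate the genes without a peak.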

How the data were processed

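CnR libraries were prepared from INTACT-isolated A2a and D1 nuclei. The authors' alignment to mm10 used Bowtie2 (version 2.1.0), followed by a filter on mapping quality of 20 or more (SAMtools, version 0.1.19) and removal of duplicates with Picard. For H3K4me3 the authors ran MACS2, and its fold enrichment (ratio to local background) and −log10 q-value were used as deposited. For H3K27me3 they ran SICER with a control that the sources used here do not name, and the deposited value is the count of reads per island, not normalized. Library totals were not given in the lists, so the depth behind each value is unknown. The other 20 samples were not analysed here.

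Genes came from GENCODE vM21 and sequence from RefSeq GRCm38.p6, whose coordinates equal mm10. A mark was called with an overlap of 1 bp or more with the promoter window. The members and lists were chosen with earlier results of these data known. Named were genes without a peak, the 3 highest and 3 lowest ranked in each list, and genes outside the chromosome 3 and 13 clusters. Genes named as examples of a sequence, copy, annotation or shared peak were chosen after their values were seen. Scripts were tested on simulated lists and sequences (Python 3.11.15, numpy 2.4.6, scipy 1.17.1, numba 0.67.0).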

Additional observations from a re-analysis of the deposited data

How the results depend on the processing

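The presence of each mark at the promoters changed little. With the window cut to 500 bp on either side of the TSS, 57 of 67 genes had an H3K4me3 peak in both lists. Of all genes, 57.5% in A2a and 55.2% in D1 had one by this rule. Hist2h3c1, Hist1h2bq, Hist1h2br, Hist1h2af and Hist1h1d were added to those without one. An overlap of at least 200 bp left 59 genes in A2a and 61 in D1, beside 58.8% and 56.4% of all genes. By this rule 2 of the 67, Hist1h2bq and Hist1h2br, had a peak in D1 alone. A peak or island in 1 cell type only was then found at 10.9% of all genes. Among genes with 80% or more single-copy words, 26 of 29 had a peak in each list, a lower count because fewer genes entered. Of the 65 genes with a stem-loop, 60 had a peak in each list. The start of any annotated transcript, a −log10 q of at least 5, equal list lengths and, chosen after seeing the data, a window around the start codon each gave 62. Of all genes, the first gave 63.1% in A2a and 60.5% in D1, the second 59% and 56.2%, and the third 58.3% and 56.8%. The start codon window was not read for all genes. No alternative put an island in a histone promoter, where 14% to 25% of all genes had one under the alternatives read for all genes. Extending the spans by 20 kb brought islands into Hist2 in A2a (3.32%) and Hist4h4 (7.47% in A2a, 3.27% in D1). The median percentile depended on the ranking: by fold enrichment it was 31.8 in A2a and 45.2 in D1, and among promoter peaks 54.3 and 46.5. The cause was not tested. Leaving out a replicate could not be run, because each list pools its 2 replicates. No paired analysis was possible because the pooled lists carry no replicate numbers. Depth is unknown from the lists, so an absent peak or island means that none was called.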

Other observations

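Histone pseudogenes of the same naming were read at their annotated starts. Hist3h2bb-ps and Hist1h2aj each lay at a peak that also touched a histone gene window. Hist1h2al, a processed pseudogene on chromosome 13 outside the Hist1 cluster, had an H3K4me3 peak of its own in both lists, with a fold enrichment of 11.5 in A2a (percentile 44.4) and 6.42 in D1 (percentile 29.1). None of the 3 had an H3K27me3 island in either list.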
